A study of Xenopus tropicalis with 4 samples.

Results

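The retinoblastoma (RB) proteins and the DREAM complex are the repressors that hold E2F target genes in check, and their own genes were examined here for binding of E2F1 and OTX1 in the early frog embryo. The set holds 10 of 21749 protein-coding genes on the 10 chromosomes of Xenopus tropicalis, chosen by name: rb1, rbl1, rbl2, lin9, lin37, lin52, lin54, rbbp4, mybl1 and mybl2. All 10 were found by symbol in the RefSeq gene table of the assembly UCB_Xtro_10.0. Their annotated lengths ran from 14.3 kb for mybl2 and lin37 to 95.3 kb for rb1.

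Binding was measured by chromatin immunoprecipitation and sequencing (ChIP-seq) of whole embryos at stage 8, a blastula stage, with 2 libraries per factor. In the E2F1 group, labelled E2F1 Rescue, embryos had received E2F1 mRNA together with an MO, and an HA antibody was used. In the OTX1 group, labelled OTX1 Rescue, embryos had received OTX1 mRNA together with an MO, and a Myc-Tag antibody was used. The labels do not say what MO stands for or targets; in frog work the letters commonly mean an antisense morpholino. Every library came from injected embryos. The antibodies, against tags, would therefore report on protein made from injected mRNA, and the sources used here do not give its amount against the embryo's own protein. The E2F1 lists held 16770 and 20385 peaks and the OTX1 lists 27755 and 29098. The weakest peaks had a q of 0.0492 and 0.0470 for E2F1 and of 0.00999 and 0.00977 for OTX1, so antibody and calling threshold both differed with the factor. Whether replicates came from separate clutches is not in the labels, and the OTX1 peak names carry the word librep, so differences between replicates may reflect library preparation only.

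RB1 and its relatives p107 (gene rbl1) and p130 (gene rbl2) bind E2F proteins and keep their targets silent until cyclin-dependent kinases phosphorylate them. In mammals, p107 or p130 joins E2F4 or E2F5, a DP partner and a core of LIN9, LIN37, LIN52, LIN54 and RBBP4 to form DREAM, which represses cell cycle genes in resting cells. When cells cycle, the same core leaves the RB relative and binds MYBL2 (B-MYB), and later FOXM1, to turn on genes of mitosis. The cleavage cycles of the frog embryo run on maternal products, without the gap phases in which this switch is best known.

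E2F1 lay at an end of nearly every gene of the set. In 9 of the 10, all except rbl2, the peaks of both E2F1 lists overlapped in a region with its summit within 1 kb of an annotated gene end. The share over all protein-coding genes was 34.9%, and of the 9890 genes within the set's range of length (14265 to 95299 bp) 40.3% did. The gene table gives no strand, so the end that carries the region is named here as the lower or the upper end by chromosome position. The 9 summits lay 13 to 182 bp from the end, with a median of 114 bp. Each of these genes had its E2F1 region at 1 end alone. The summits of the replicate lists lay 1 to 123 bp apart. A background limit was set as an alternative, at 2 times the lowest local background of each list. With the peaks above it left out, lin37 alone kept E2F1 at an end, beside 11.3% of all genes. The E2F1 peaks above the limit had a median of 25 and 28 fragments at the summit, against 12 and 13 for the rest. At a given fold, a higher background by itself means more fragments. What the losses under this limit say about the calls was not tested. That setting is taken up again with the fragment counts of these peaks.

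A fold and a percentile describe the height of each peak. The fold is the authors' own value at the summit. It is taken here as the fragments at the summit plus 1, divided by the local background plus 1. The background is the one that the peak caller estimated for that library. The percentile is the place of that fold among all peaks of the list, with the highest near 100. The regions at the ends of the 9 genes had a median fold of 7.51 in replicate 1 and 9.93 in replicate 2, against 6.16 and 6.72 over all 6798 E2F1 regions at gene ends. The median of the mean percentile was 86.4 for the 9 genes and 67.0 for the 7596 genes that had E2F1 at an end.

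**Figure D1:**
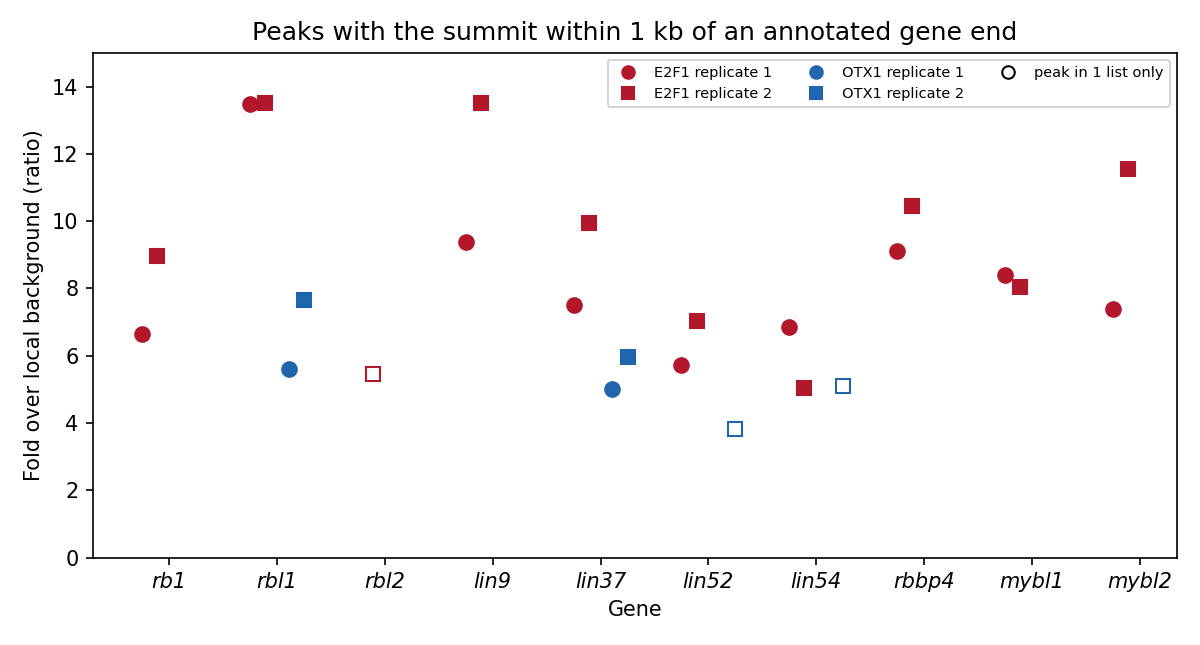
Fold over local background (y axis, a ratio) of the peaks whose summit lay within 1 kb of an annotated end of each gene (x axis), in each of the 4 lists. Circles are replicate 1 and squares replicate 2, red is E2F1 and blue OTX1, and open symbols are peaks found in 1 list of the factor only. The E2F1 folds run from 5.04 at lin54 to 13.5 at rbl1 and lin9, OTX1 has filled symbols at rbl1 and lin37 alone, and rbl2 has an open E2F1 symbol.

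Among the RB family genes, rbl1 had the highest E2F1 fold of the set in replicate 1. This gene encodes p107, which is itself a well-known E2F target in mammals. Its region (chromosome 10, 42360973 to 42361879, xenTr10, 1-based) had folds of 13.5 and 13.5 in replicates 1 and 2, at ranks 190 and 315 of those lists. The summit rested on 80 fragments in replicate 1 (exact Poisson 95% interval 63.4 to 99.6, counting error only) and on 113 in replicate 2 (93.1 to 135.9). The region covered the lower end of rbl1, with the summit 95 bp outside the gene, and no end of another protein-coding gene lay within 1 kb.

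The founding member rb1 carried a lower peak at its lower end (chromosome 2, 134929022 to 134929595). The folds were 6.65 and 8.97, at percentiles 71.9 and 88.5, and the summit lay 20 bp inside the gene. Inside rb1, E2F1 had a further pair of reproducible regions, 31.2 and 28.9 kb from the upper end. The region farther from that end (134993214 to 134993558) had folds of 4.92 and 6.11, and its neighbour (134995355 to 134995985) had 7.58 and 8.20. By fold, the neighbour was thus the tallest E2F1 peak of the gene in replicate 1, and the end peak was in replicate 2. The neighbour had more fragments at the summit in both lists, 58 and 70 against 24 and 39 at the end. Its local background was also higher, 6.78 and 7.66 fragments against 2.76 and 3.46. The gene lpar6, a receptor gene, is annotated inside rb1, but no end of a protein-coding gene lay within 1 kb of either interior summit.

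The p130 gene, rbl2, was the exception. An E2F1 peak at its upper end, 57 bp inside the gene (chromosome 4, 49463206 to 49463496), was in replicate 2 alone, with a fold of 5.45 and 14 fragments at the summit. Replicate 1 had no peak there. The single reproducible E2F1 region of the gene lay 9.42 kb beyond the upper end (49472406 to 49472912), with folds of 4.21 and 6.63. Why replicate 1 lacked the peak at the end was not tested, so this absence does not show that rbl2 differs from its relatives.

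The genes of the DREAM core carried E2F1 at an end without exception, over a wide range of heights. For lin9, whose protein takes part in binding B-MYB in mammals, the region at the lower end (chromosome 5, 8016542 to 8017205) had folds of 9.37 and 13.5. Its replicate summits lay 1 bp apart, 24 and 23 bp inside the gene. In replicate 2 the fold was the highest of the set, level with rbl1 at the third digit, while in replicate 1 rbl1 stood well above lin9.

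The histone-binding protein RBBP4 belongs to several chromatin complexes besides DREAM. Its gene had folds of 9.11 and 10.5 at the upper end (chromosome 2, 90314425 to 90315521), with 76 and 99 fragments at the summit. The neighbouring gene zbtb8os lies 52 bp beyond that end, so the region belongs to the ends of both genes.

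In the gene of LIN37, which is needed for repression by DREAM in mammals, the folds were 7.51 and 9.93 at the lower end (chromosome 7, 128884043 to 128884945). The summit lay 181 bp outside lin37, and the end of its neighbour proser3 is 93 bp away from that of lin37. For lin52, the subunit through which phosphorylation by DYRK1A assembles DREAM, the folds at the lower end were 5.71 and 7.04 (chromosome 8, 81970278 to 81970859). Here too the neighbour, aldh6a1, ends 232 bp from lin52. At rbbp4, lin37 and lin52, E2F1 regions therefore cannot be assigned to a single gene by position.

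LIN54, the subunit that contacts DNA, had the lowest fold of the reproducible E2F1 peaks at gene ends in replicate 2, while in replicate 1 rb1 and lin52 were lower. The folds at the lower end of lin54 (chromosome 1, 85262216 to 85262672) were 6.85 and 5.04. The summit rested on 22 fragments in replicate 1 (13.8 to 33.3) and 16 in replicate 2 (9.15 to 26.0). These counts are not scaled to the depth of the libraries, so the intervals do not compare the replicates. A further E2F1 region lay 6.81 kb inside the gene (85268950 to 85269315), with folds of 4.83 and 5.27.

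Both MYB genes carried E2F1 at an end as well. MYBL2 is the ubiquitous member that works in dividing cells, and the related MYBL1 (A-MYB) is best known from the germ line. At mybl2, the region over the lower end (chromosome 10, 39925405 to 39926042) had folds of 7.39 and 11.5, with 27 and 68 fragments at the summit. A second E2F1 region near mybl2, 9.77 kb beyond the upper end (39949195 to 39950039), had folds of 10.3 and 10.6. It was taller than the end region in replicate 1 and lower in replicate 2. At mybl1, the region over the upper end (chromosome 6, 119005971 to 119006946) had folds of 8.39 and 8.05.

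The order of the 9 genes by fold at their ends was only partly shared between the E2F1 lists. In replicate 1 the order ran rbl1, lin9, rbbp4, mybl1, lin37, mybl2, lin54, rb1 and lin52. In replicate 2 it ran lin9, rbl1, mybl2, rbbp4, lin37, rb1, mybl1, lin52 and lin54. Rbl1, lin9 and rbbp4 were among the highest 4 in both lists, and lin52 and lin54 among the lowest 3. Of the genes between them lin37 held the same place in both lists, while mybl1, mybl2 and rb1 changed places, so most neighbours in that order cannot be ranked against the spread between lists.

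**Figure D2:**
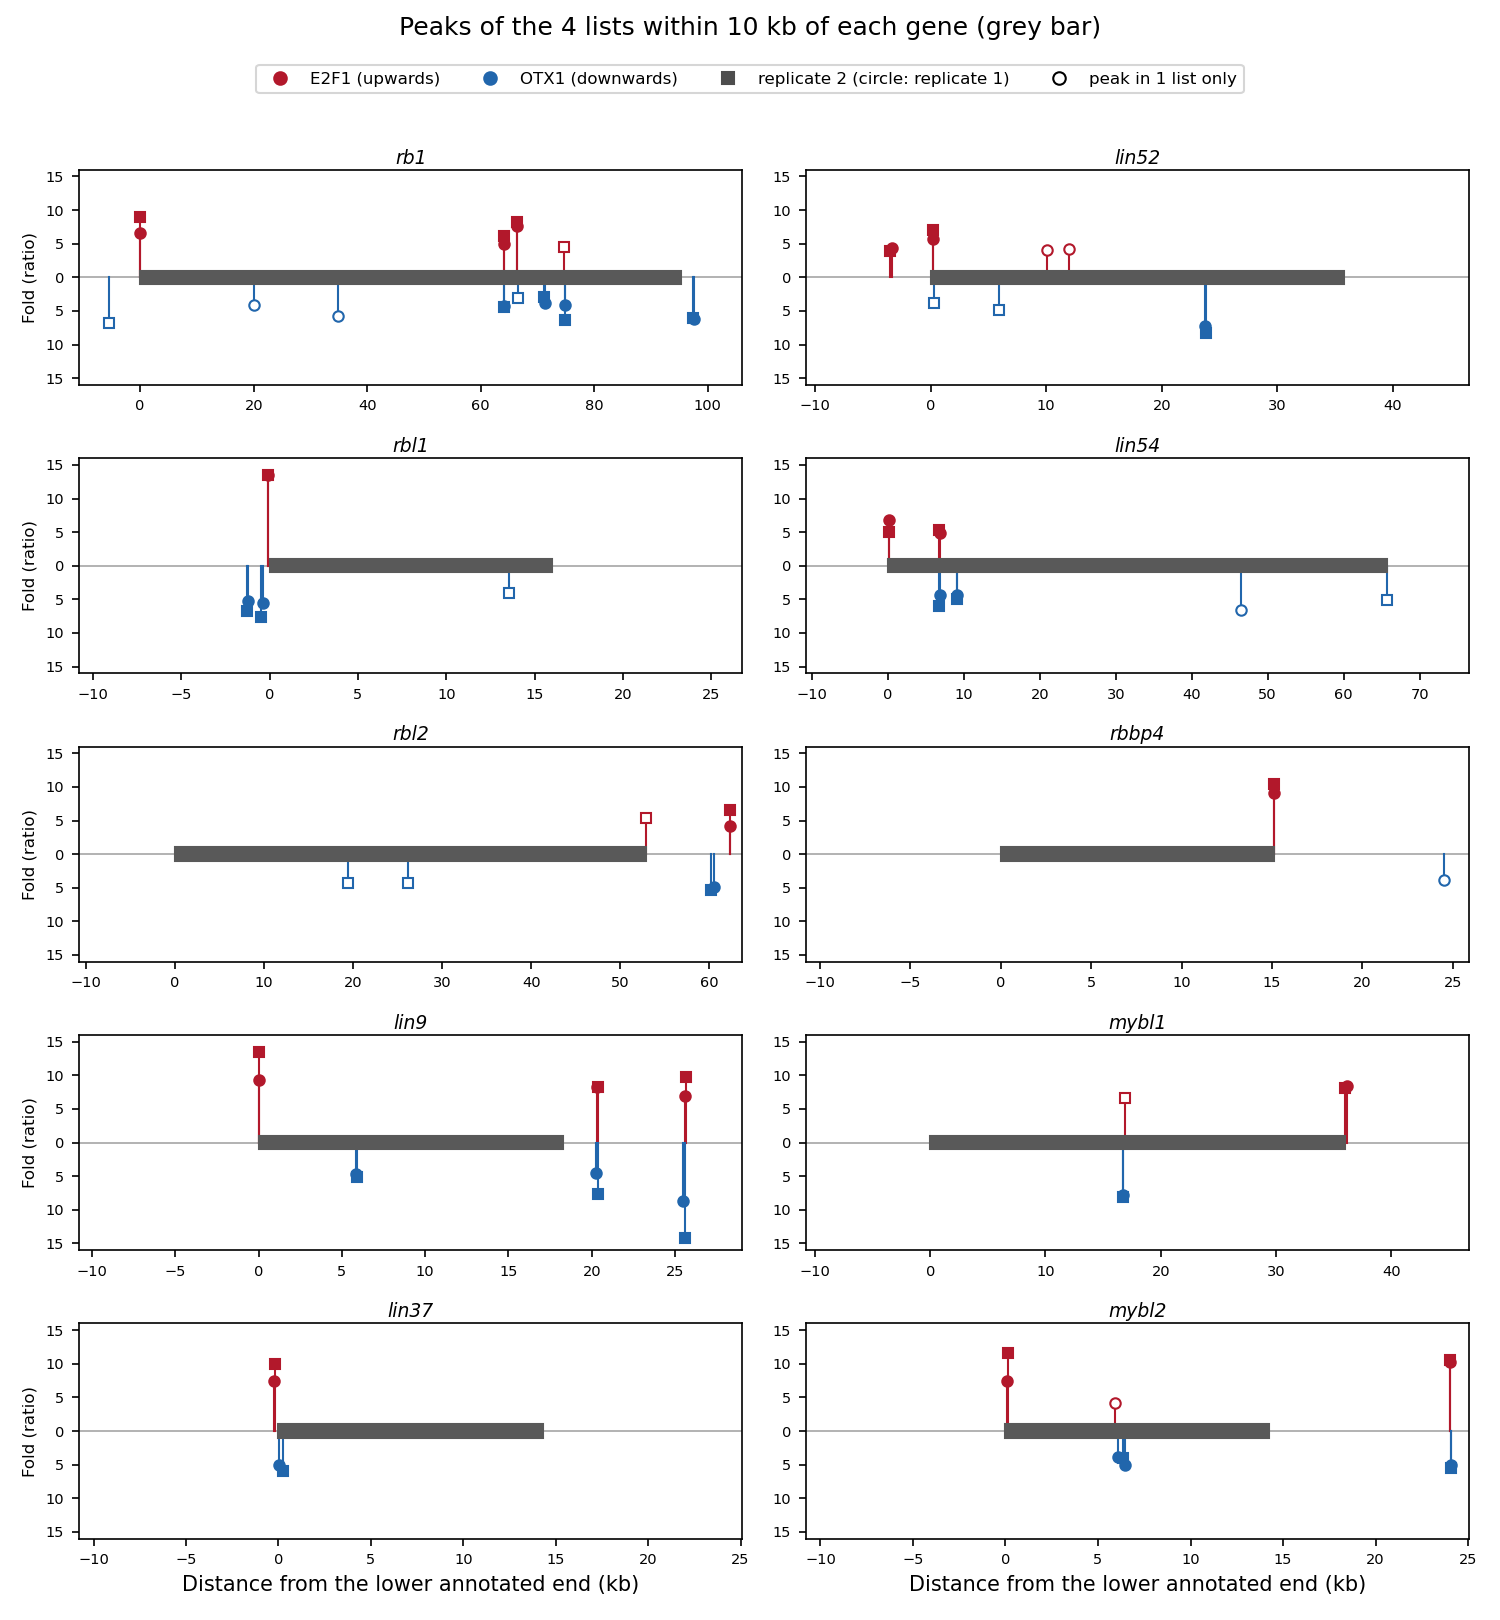
Every peak of the 4 lists within 10 kb of each gene (grey bar), by distance of the summit from the lower annotated end in kb (x axis) and fold (y axis, a ratio), with E2F1 drawn upwards and OTX1 downwards. Circles are replicate 1, squares replicate 2, and open symbols are peaks in 1 list of the factor only. The tallest E2F1 peaks stand at gene ends in most panels, while OTX1 peaks are spread inside and beside the genes.

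Within 10 kb of the gene, E2F1 had a reproducible region at 10 of the 10 genes, where 53.9% of all protein-coding genes and 59.8% of those in the same range of length had 1 or more. The count fell to 9, without rbl2, with a −log10 q of at least 5 (44.5% of all genes) and with a window of 5 kb (48.4%). With peaks above the background limit left out, E2F1 was within 10 kb of 3 of the 10, beside 24.5% of all genes. There were 17 such regions in the lists as deposited: 9 at gene ends, 3 inside genes and 5 outside. The share at ends, 52.9%, was close to the 47.1% of all pairs of an E2F1 region and a gene within 10 kb. Each E2F1 list had 20 peaks in these windows, of which 3 in each list had no partner in the other. Over the whole lists, the 16770 and 20385 E2F1 peaks gave 13216 reproducible regions. A few regions lay near the limit of 10 kb. The E2F1 regions nearest to it on the inside were those of rbl2 and mybl2, whose edges lay 9.10 and 9.24 kb from the gene. The region nearest to it on the outside was at lin54, 10.6 kb away, with folds of 6.63 and 7.03.

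OTX1, a homeodomain protein of the head and forebrain that the egg also carries, was near most of the genes but rarely at their ends. A reproducible OTX1 region lay within 10 kb of 9 of the 10 genes, all except rbbp4, against 41.9% of all protein-coding genes and 48.9% of those in the same range of length. With peaks above the background limit left out, 6 of the 10 had OTX1 within 10 kb, beside 32.5% of all genes. The genes lost were lin52, lin54 and mybl1. The 17 OTX1 regions of the lists as deposited fell at gene ends in 2 cases, inside genes in 9 and outside in 6. The shares, 11.8%, 52.9% and 35.3%, were close to those of all pairs of an OTX1 region and a gene within 10 kb, which were 10.6%, 55.0% and 34.5%. For rbbp4 the OTX1 lists held a single peak, in replicate 1, with a fold of 3.83 and its summit 9.42 kb beyond the upper end.

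At gene ends, OTX1 was reproducible at rbl1 and lin37, 2 of the 10 genes, against 7.18% of all genes and 7.78% of those in the same range of length. A count of 2 is too small to read a share from. At rbl1, the OTX1 region 474 bp outside the lower end (42361000 to 42361484) had folds of 5.59 and 7.67, and a second lay 1.26 kb outside it (42360223 to 42360443) with 5.29 and 6.67. At lin37, the region 231 bp inside the lower end (128884468 to 128884883) had folds of 5.02 and 5.95, with 12 and 13 fragments at the summit. An end of proser3 also lay within 1 kb of that summit, so the region cannot be assigned to lin37 alone by position. In replicate 2 alone, OTX1 also had a peak at an end of lin52 (fold 3.82) and of lin54 (fold 5.1). The lin37 region was lost when 50% of each peak had to overlap and when the 4 lists were cut to equal length, which left rbl1 alone.

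Counted per list, a summit within 1 kb of an end was found at 9 and 10 of the genes in the E2F1 lists and at 2 and 4 in the OTX1 lists. All genes gave 37.4% and 41.5% for E2F1 and 12.6% and 11.8% for OTX1 in the same lists. The mean was 9.5 ± 0.707 (SD, n = 2) for E2F1 and 3 ± 1.41 (SD, n = 2) for OTX1. The difference of 6.5 genes gave p = 0.333 in a two-sided exact permutation test, and no smaller p is possible with 2 libraries a factor. The difference turned to -1 without peaks above the background limit. That limit leaves out 42.1% and 38.7% of the E2F1 peaks but 22.8% and 24.3% of the OTX1 peaks, so it does not treat the factors alike.

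**Figure D3:**
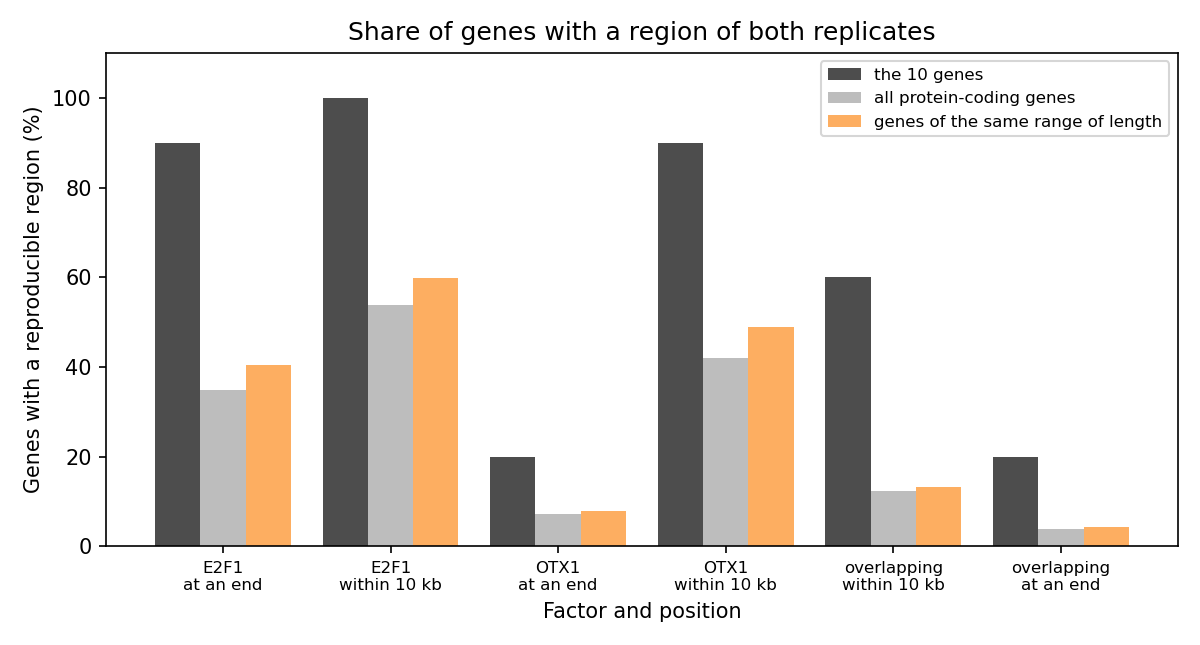
Share of genes (y axis, %) with a reproducible region, for each factor and position (x axis). Dark bars are the 10 genes, grey bars all 21749 protein-coding genes and orange bars the 9890 genes in the same range of length. E2F1 at an end stands at 9 of 10 genes beside 34.9% and 40.3%, and overlapping regions within 10 kb at 6 of 10 beside 12.4% and 13.1%.

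E2F1 and OTX1 regions overlapped at 6 of the 10 genes: rb1, rbl1, lin9, lin37, lin54 and mybl2. Of all protein-coding genes, 12.4% had overlapping regions within 10 kb, and 13.1% of those in the same range of length. With peaks above the background limit left out, 2 of the 10 had them, beside 3.61% of all genes. Of the 17 E2F1 regions near the set, 7 (41.2%) overlapped an OTX1 region, and so did 7 of the 17 OTX1 regions, against 18.7% and 20.1% of all pairs of a region and a gene. The factors were precipitated from separate embryos, so an overlap does not show both on the same DNA.

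The overlaps were of different kinds. At gene ends there were 2, at rbl1 and lin37, against 3.75% of all genes and 4.22% of those in the same range of length, and there the summits of the factors lay 379 and 412 bp apart. The other 5 were away from the ends of the set's genes, with summits 5 to 57 bp apart. The closest was the region inside lin54, 5 bp apart, where OTX1 had folds of 4.36 and 5.95. Inside rb1 the summits at the region with the lower E2F1 fold lay 13 bp apart, and OTX1 had folds of 4.23 and 4.44 there. Beyond the upper end of mybl2 the distance was 57 bp, with OTX1 folds of 5.12 and 5.43, under the E2F1 folds at the same place.

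The space beyond the upper end of lin9 held both factors in a pair of places. The nearer, 2.08 kb from the end (8036918 to 8037379), had E2F1 folds of 8.23 and 8.25 and OTX1 folds of 4.53 and 7.72, with summits 54 bp apart. The farther, 7.39 kb from the end (8042131 to 8042621), had E2F1 folds of 6.97 and 9.81 and the tallest OTX1 peaks near the set, with folds of 8.65 and 14.3. Its summit lies within 1 kb of an end of mixer, a homeobox gene of the endoderm, so this region is near lin9 only by the 10 kb rule.

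Several OTX1 regions stood apart from E2F1. Inside lin52, 12.0 kb from the upper end (81994120 to 81994741), OTX1 had folds of 7.28 and 8.35 and neither E2F1 list had a peak. Inside mybl1, 16.7 kb from the lower end (118986773 to 118987182), it had 7.86 and 8.13, and E2F1 had a peak there in replicate 2 alone (fold 6.61). At rb1, an OTX1 region 2.23 kb beyond the upper end had folds of 6.18 and 6.0. Of the 3 OTX1 regions inside rb1, 1 overlapped the E2F1 region described above, and another overlapped an E2F1 peak of replicate 2 alone. Near rbl2, the OTX1 region 7.29 kb beyond the upper end (folds of 4.86 and 5.40) did not overlap the E2F1 region farther out.

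The local background of a peak was high at most of the E2F1 regions described. The fragment count of a summit and its local background follow from the fold and p of the peak. Of the 9 end regions, 7 lay above 2 times the lowest background in both lists, lin54 in replicate 1 only and lin37 in neither. At rbl1 the background was 5.01 and 7.43 fragments, against limits of 2.25 and 2.50, under summits of 80 and 113. High background at gene ends was also found outside this set, but the set lost more under the limit. Without peaks above the limit, the share of all genes with E2F1 at an end fell from 34.9% to 11.3%. In the set the count at an end fell from 9 of the 10 genes to 1 of the 10. The set thus no longer stood above all genes in this setting. The peaks above the limit made up 42.1% and 38.7% of the E2F1 peaks at all positions. Their median fold was 6.05 and 6.30 against 5.17 and 5.08 for the rest, and they had a median of 25 and 28 fragments at the summit against 12 and 13. At a given fold, a higher background by itself means more fragments at the summit. The sources used here name no control library, and a background taken from the precipitated library itself would include the signal of the peak. Which of these was used was not tested. The part of the background in these calls was not tested.

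**Figure D4:**
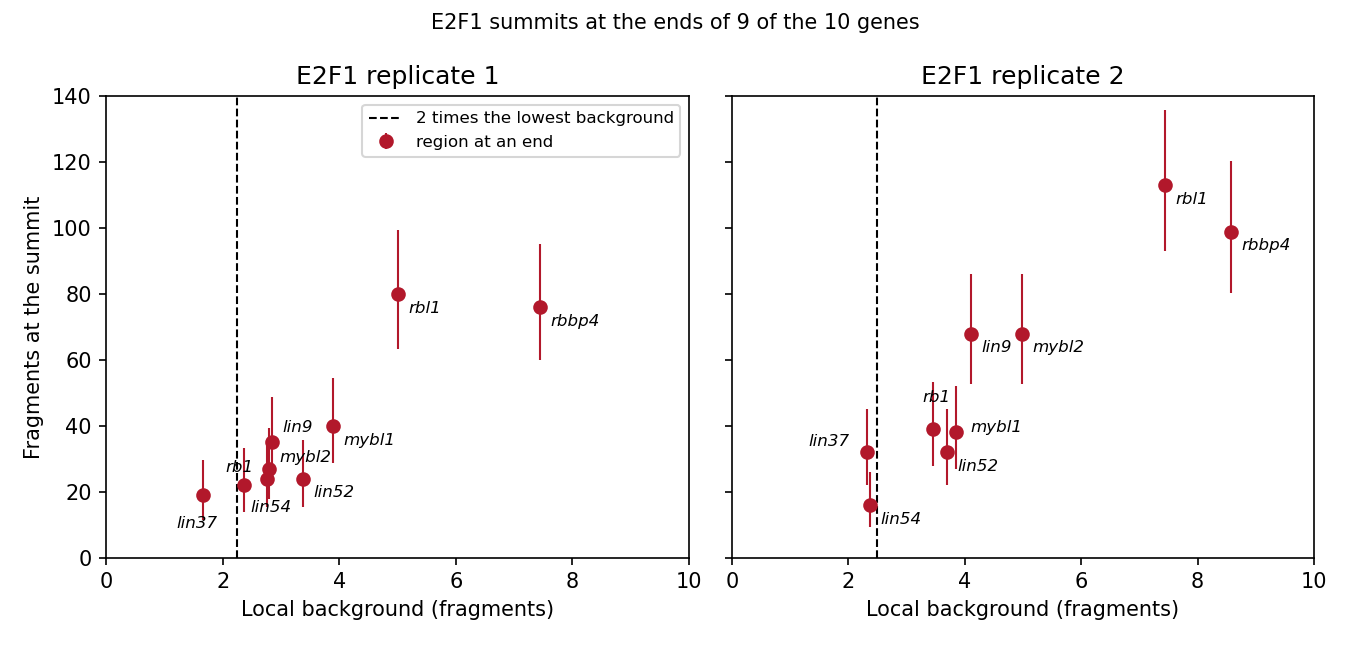
Fragments at the summit (y axis) against the local background in fragments (x axis) for the E2F1 regions at the ends of 9 genes, in replicate 1 (left) and replicate 2 (right). Bars are exact Poisson 95% intervals and the dashed line is 2 times the lowest background of the list. Rbl1 and rbbp4 combine the highest summits with the highest background, and lin37 lies left of the line in both lists.

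The partners and targets of these proteins were compared through 5 further lists. Of the E2F and DP genes matched here, 8 of 9 had an E2F1 region at an end, beside 34.9% of all genes, and tfdp2, a DP partner, had none within 10 kb. The highest were e2f8, an atypical E2F that represses without a DP partner (folds of 14.2 and 15.5), e2f3, an activator (12.0 and 12.5), e2f1 itself (10 and 12.7) and e2f7, the other atypical E2F (9.75 and 13.2). The E2F and DP genes of DREAM itself are named here for that role and not by the rule for named genes. Of these, e2f4 (5.80 and 6.06) and e2f5 (5.77 and 7.93) were lower in both lists. Tfdp1 had 7.79 and 12.7, below the highest genes just named in replicate 1 but above e2f3 in replicate 2. In this family OTX1 was at an end of e2f3 alone. With peaks above the background limit left out, E2F1 was at an end of 1 of the 9, beside 11.3% of all genes.

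Genes that act on RB proteins or DREAM had E2F1 at an end in 11 of 16 cases, beside 34.9% of all genes. With the peaks above the background limit left out, 2 of 16 had it, beside 11.3% of all genes. Highest were the kinase inhibitor cdkn2d (12.5 and 17.3), the kinase cdk2 (12.2 and 12.0), the inhibitor cdkn1b (8.24 and 12.7) and the cyclin ccna2 (8.26 and 8.23). The inhibitor gene cdkn2b had no E2F1 region within 10 kb. Of the chromatin partners of RB proteins, 9 of 11 had E2F1 at an end, and 0 of 11 under that setting. The highest was rbbp7, the close relative of rbbp4 (12.0 and 14.7), followed by the methyltransferase suv39h2 (10.4 and 9.84) and the deacetylases hdac2 (8.22 and 10.4) and hdac1 (8.46 and 8.09). OTX1 was at an end of 3 of these 11, namely rbbp7, hdac1 and the demethylase kdm5b, beside 7.18% of all genes. So rbbp7 had both factors at its ends while rbbp4 had E2F1 alone among reproducible regions.

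Early and late cell cycle targets are controlled in mammals through E2F sites and by the MYBL2 and FOXM1 complexes, respectively. In both lists most genes had E2F1 at an end, beside 34.9% of all genes. The early list had it at 12 of 15 genes, led by the origin-loading factor cdc6 (17.0 and 19.8), the ribonucleotide reductase subunit rrm1 (17.5 and 16.6) and the helicase subunits mcm4 (11.9 and 12.2) and mcm2 (11.0 and 11.5). Of this list, mcm6 and dhfr had no E2F1 region within 10 kb. The late list had it at 22 of 29, led by the kinetochore gene ndc80 (13.6 and 15.2), the topoisomerase top2a (13.2 and 14.0), the kinesin kif23 (11.6 and 11.8) and foxm1 (11.4 and 11.4). In the late list, ccnb1 and ccnb2, which encode mitotic B-type cyclins, cdc20, an activator of the anaphase-promoting complex, the kinesin kif20a and birc5 had no E2F1 region within 10 kb. Their relatives in that list did have E2F1 at an end, ccnb1.2 with folds of 4.29 and 5.41 and birc5l with 10.6 and 12.5. The median of the mean percentile at ends was 93.3 for the early list and 77.9 for the late list, beside 86.4 for the RB and DREAM genes and 67.0 over all genes. These medians come from genes with a region and were not tested against each other. With peaks above that background limit left out, the counts at ends fell to 0 of 15 in the early list and 5 of 29 in the late list. Under that setting 11.3% of all genes had E2F1 at an end.

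**Figure D5:**
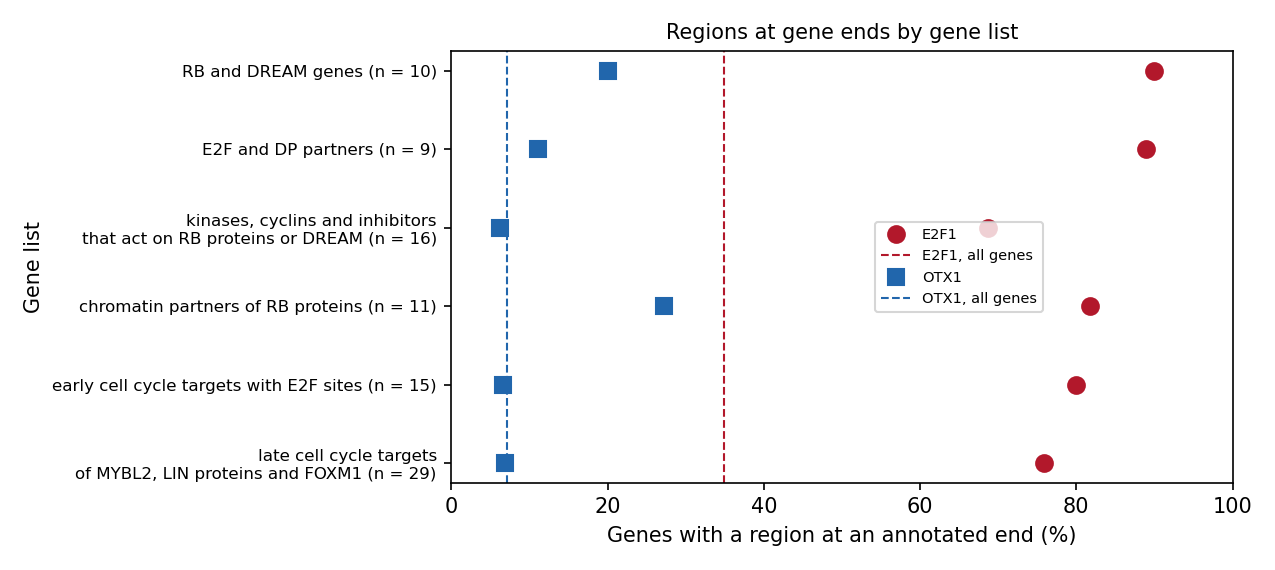
Share of genes with a reproducible region at an annotated end (x axis, %) in each gene list (y axis, with the number of genes matched), for E2F1 (red circles) and OTX1 (blue squares). Dashed lines mark the share over all protein-coding genes, 34.9% for E2F1 and 7.18% for OTX1. Every list lies right of the red line, and OTX1 lies close to the blue line in 3 of the lists.

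The genes whose peaks were most like those of rbl1 were sought by the highest fold percentile within 10 kb in each of the 4 lists. Rbl1 had percentiles of 98.9 and 98.5 for E2F1 and 70.3 and 88.9 for OTX1. The 6157 genes with only a locus number as symbol were left out of this search. The nearest of the others by Euclidean distance over these 4 values were actr3 (distance 4.65), stat2 (5.09) and dnaja1 (6.32). Actr3 encodes a subunit of the actin-nucleating ARP complex, stat2 a transcription factor of interferon signalling and dnaja1 a co-chaperone. Actr3 had 99.7 and 99.4 for E2F1 and 65.8 and 88.7 for OTX1.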

How the data were processed

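The deposited files are 4 peak lists, 1 per library, analysed as deposited. Tools named in the submitters' processing notes, with no order or role, are MACS2 2.2.7.1, Bowtie2 2.4.5, deepTools and fastp. The authors' lists give a score (10 times the −log10 q, cut to a whole number), the fold as a ratio at the summit, and the −log10 of the p-value and q-value. The build xenTr10 is in the OTX1 peak names, per the file headers and names, and sequence names are the same in the E2F1 lists. Read totals are not in the lists. Fragments at the summit and local background were solved from the deposited fold and p-value, taking the fold as (pileup + 1) / (background + 1) and p as a Poisson upper tail, and the largest misfit was 4.56e-05 on the −log10 p scale.

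A reproducible region joins the peaks of both replicates where they overlap by 1 bp or more, and takes its summit from the peak with the higher percentile. A region counts as within 10 kb if it touches the gene extended by 10 kb to each side, and as at an end if its summit is no more than 1 kb from either annotated end. The script (Python 3.11.15, pandas 2.3.3, scipy 1.17.1) was tested on simulated data. All 10 genes are named. Of each further list, up to 4 genes with the highest mean E2F1 percentile at an end and those without E2F1 within 10 kb are named. The members, lists and alternatives were chosen with earlier results of these data known. Symbols ccnd3, cdkn1c, e2f2, rrm2 and suv39h1 were not matched in the gene table and are not analysed here; birc5.1 is a second name of birc5 in that table. No sequence was used.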

Additional observations from a re-analysis of the deposited data

How the results depend on the processing

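The E2F1 count at gene ends stayed at 9 with a 50% overlap of each peak, a −log10 q of at least 5, lists of equal length (16770 peaks) and summits within 500 bp. The shares over all genes in these settings were 32.3%, 28.1%, 33.6% and 31.9%, in that order. Leaving out a replicate gave 9 to 10 at ends (37.4% to 41.5% of all genes) and 10 within 10 kb (58.9% to 64.4%). For OTX1, leaving out a replicate gave 2 to 4 genes at ends, beside 11.8% to 12.6% of all genes. Within 10 kb it gave 9 to 10, beside 54.6% to 55.2%. The OTX1 count within 10 kb stayed at 9 with a −log10 q of at least 5 (32.2%). It was 8 with a 50% overlap (35.5%) and with lists of equal length (29.8%). With windows of 5 kb and 1 kb it was also 8, beside 34.9% and 28.0%. The OTX1 count at ends was 1 with a 50% overlap (5.37% of all genes) and 1 with lists of equal length (3.82%). Overlapping regions were found at 6 to 7 genes when a replicate was left out, beside 14.5% to 17.1% of all genes. With a −log10 q of at least 5 they were found at 6 (7.12%). The count was 5 with a 50% overlap (9.49%), with lists of equal length (7.91%) and with a window of 5 kb (10.2%). It was 4 with a window of 1 kb (8.25%) and 4 with summits within 100 bp (6.69%). The background setting left out peaks whose background was above 2 times the lowest of the list. E2F1 then remained at the end of 1 gene (lin37), beside 11.3% of all genes. Within 10 kb it remained at 3 (rbl2, lin9 and lin37), beside 24.5%, and overlapping regions at 2 (lin9 and lin37), beside 3.61%. The difference between the factors per list turned to -1 (exact permutation p = 0.667). The same background setting was added for the further lists after the data were seen. There it left E2F1 at an end of 1 of the E2F and DP genes and 2 of the genes acting on RB proteins or DREAM. It left 0 of the chromatin partners of RB proteins, 0 of the early and 5 of the late targets, beside 11.3% of all genes. The E2F1 peaks it removes had a median fold of 6.05 and 6.30 against 5.17 and 5.08 for the rest. For the OTX1 peaks these were 4.75 and 5.18 against 4.96 and 5.26. At the summit, the removed E2F1 peaks had a median of 25 and 28 fragments against 12 and 13. For OTX1 these were 23 and 23 against 14 and 14. The cause of the losses was not tested. The replicate numbers are not stated to pair the libraries. With the number as a replicate block the differences were 7 and 6 genes, which is also the range, 6 to 7, when a replicate number is left out. Apart from 1 peak with 26, the peaks in 1 list only rest on 10 to 17 fragments, so their absence from the other list does not show a loss of binding.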

Other observations

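Peaks in 1 list only added a few places to the 10 genes. In E2F1 replicate 1, lin52 had peaks 10.1 and 12.0 kb inside the gene with folds of 4.10 and 4.2. E2F1 replicate 2 had a peak inside rb1, 20.6 kb from the upper end, with a fold of 4.47. It overlapped an OTX1 region present in both lists with folds of 4.05 and 6.31. In E2F1 replicate 1, mybl2 had a peak 5.90 kb inside the gene with a fold of 4.10, which overlapped the OTX1 region there (5.06 and 3.97). OTX1 replicate 2 had a peak under the tallest interior E2F1 region of rb1, with a fold of 3.12 and 26 fragments at the summit. In all, 4 of 22 OTX1 peaks of replicate 1 and 8 of 25 of replicate 2 near the genes had no partner in the other list. Over the whole lists, the 27755 and 29098 OTX1 peaks gave 17768 reproducible regions.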
